A study of Mus musculus with 19 samples.

Results

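CXC chemokines are small signalling proteins, named for the spacing of their first cysteines, that attract leukocytes to inflamed tissue. The 9 genes described here were chosen by name from the 56980 genes counted in CD11b+ cells of the mouse brain, and are *Cxcl1*, *Cxcl2*, *Cxcl3*, *Cxcl5*, *Cxcl9*, *Cxcl10*, *Cxcl13*, *Cxcl14* and *Cxcl16*. The cells came from 19 male mice, 1 mouse per library, in a study of how *PARK7*/DJ-1 deficiency alters the microglial response to peripheral lipopolysaccharide (LPS), a bacterial cell wall component. LPS (4 µg per g of body weight) had been injected intraperitoneally 6 h earlier into 5 *PARK7*/DJ-1 KO and 5 wildtype animals, and PBS into 5 KO and 4 wildtype animals, whose state is here called baseline. All were littermates of 3 to 4 months from heterozygous parents of a gene-trap *Park7* line backcrossed to C57BL/6NCrl. CD11b, an integrin of microglia and other myeloid cells, was used to isolate the cells with magnetic beads from the brain without olfactory bulb and cerebellum.

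The CXCL1, CXCL2, CXCL3 and CXCL5 proteins carry the ELR motif and attract neutrophils through CXCR2, and their genes are classical targets of the transcription factor NF-κB downstream of Toll-like receptors. CXCL9 and CXCL10 are interferon-inducible ligands of CXCR3 and attract activated T and NK cells. CXCL13 guides B cells through CXCR5, CXCL14 is a constitutive chemokine of epithelia and of neural tissue, and CXCL16 is held in the membrane, released by the proteases ADAM10 and ADAM17, and bound by CXCR6.

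Promoter sequence is shown for 6 members to place the NF-κB and interferon elements of 5 genes that rose after LPS beside those of *Cxcl14*, which did not pass the test. The RefSeq promoter table (build GRCm38.p6) held 7 of the 9 members, all but *Cxcl5* and *Cxcl16*, and both strands of the 250 bases before each start were searched. The stretches below run 5′ to 3′ on the gene's strand and end at the base before the start. Capitals mark the NF-κB consensus motif in *Cxcl1* (chr5:90891115-90891244, plus strand), *Cxcl2* (chr5:90903769-90903898, plus strand) and *Cxcl3* (chr5:90785971-90786100, plus strand). In *Cxcl9* (chr5:92328080-92328279, minus strand) they mark the core letters of the interferon-stimulated response element, GAAANNGAA, and in *Cxcl10* (chr5:92348890-92349139, minus strand) both of these motifs. In *Cxcl14* (chr13:56296552-56296751, minus strand) they mark GAAANNGAA and the gamma-activated site letters TTCNNNGAA.
Cxcl1: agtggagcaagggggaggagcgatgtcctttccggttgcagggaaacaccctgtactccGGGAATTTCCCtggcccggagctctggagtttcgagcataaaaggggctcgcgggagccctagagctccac
Cxcl2: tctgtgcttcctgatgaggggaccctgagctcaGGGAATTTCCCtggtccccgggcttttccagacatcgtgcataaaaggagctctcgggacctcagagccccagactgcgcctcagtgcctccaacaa
Cxcl3: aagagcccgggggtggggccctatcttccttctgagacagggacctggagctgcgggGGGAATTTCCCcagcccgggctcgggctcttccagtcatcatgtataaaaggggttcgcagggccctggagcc
Cxcl9: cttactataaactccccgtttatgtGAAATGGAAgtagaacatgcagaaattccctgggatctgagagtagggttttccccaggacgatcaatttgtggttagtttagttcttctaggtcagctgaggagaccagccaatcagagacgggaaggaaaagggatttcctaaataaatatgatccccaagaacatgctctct
Cxcl10: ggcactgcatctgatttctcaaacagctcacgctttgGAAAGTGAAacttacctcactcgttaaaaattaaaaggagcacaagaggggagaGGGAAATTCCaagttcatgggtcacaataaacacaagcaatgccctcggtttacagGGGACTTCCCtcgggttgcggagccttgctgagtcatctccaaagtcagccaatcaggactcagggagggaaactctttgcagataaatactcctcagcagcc
Cxcl14: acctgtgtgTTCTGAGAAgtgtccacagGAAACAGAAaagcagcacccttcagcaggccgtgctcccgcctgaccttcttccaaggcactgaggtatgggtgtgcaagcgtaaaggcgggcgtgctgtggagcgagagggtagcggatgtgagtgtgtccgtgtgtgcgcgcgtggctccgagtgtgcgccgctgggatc
The longest run of letters that the promoters of *Cxcl1*, *Cxcl2* and *Cxcl3* shared was GGGAATTTCCC, which began 71, 97 and 73 bases before the start, respectively. It matched the NF-κB motif on both strands, offset by 1 base, so the overlapping matches form 1 block of capitals. Of 32851 promoters of the same length, 14 (0.0426%) held this run, against 3.9% for the NF-κB motif. The run was picked because these promoters share it and has no variable letters, so a low share followed from the choice. *Cxcl10* held the NF-κB motif at 2 places, 159 and 103 bases before its start, and GAAANNGAA 213 bases before it, letters found in 7.13% of promoters. *Cxcl9* held GAAANNGAA 175 bases before its start. *Cxcl14* held GAAANNGAA 172 bases and TTCNNNGAA 191 bases before its start, the latter found in 7.02% of promoters, and no NF-κB motif. None of the 3 motifs matched in the window of *Cxcl13*. Such matches describe sequence and do not show binding.

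On chromosome 5 of GRCm39 (GENCODE M39 annotation) lay 7 of the 9 members, all but *Cxcl14* and *Cxcl16*. The CXCR2 ligands stood together on the plus strand, with *Cxcl5* (ENSMUSG00000029371, chr5:90907186-90909483) 24478 bases from *Cxcl3* (ENSMUSG00000029379, chr5:90933962-90937459). *Cxcl1* (ENSMUSG00000029380, chr5:91039094-91040974) lay 10755 bases before *Cxcl2* (ENSMUSG00000058427, chr5:91051730-91053797). *Cxcl9* (ENSMUSG00000029417, chr5:92469206-92475945) and *Cxcl10* (ENSMUSG00000034855, chr5:92494497-92496748) were neighbours on the minus strand, 18551 bases apart. *Cxcl13* (ENSMUSG00000023078, chr5:96104810-96108927) lay on the plus strand, *Cxcl14* (ENSMUSG00000021508, chr13:56436352-56444603) and *Cxcl16* (ENSMUSG00000018920, chr11:70344517-70352620) on the minus strand of their chromosomes. *Cxcl2* and *Cxcl3* share 101 stretches of 75 bases, the read length, and the other members share none with each other. These were 4.57% and 2.78% of the distinct stretches of this length (2209 and 3637) in all annotated transcripts of the 2 genes. *Cxcl5*, *Cxcl10* and *Cxcl16* overlap genes on the opposite strand. The libraries were stranded, but the strand setting of the counting is not given in the sources used here.

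Library depth ranged from 11936364 to 22788884 counts with a median of 17211939, so that 3 counts, taken as the smallest signal of a library, equal 0.139 to 0.256 CPM (counts scaled to the library's total, as normalized with TMM). This limit covers counting error only. *Park7* had 262 to 533 counts in the 9 wildtype mice and 9 to 90 counts in the 10 KO mice, so every library matched its genotype label. The summed level of 9 microglial markers was 25555 to 40732 CPM at baseline and 10640 to 17430 CPM after LPS, and all 9 fell after LPS in both genotypes. All 6 monocyte markers rose after LPS in both genotypes, from a sum of 29.0 to 64.7 CPM at baseline to 179 to 477 CPM. By the same thresholds, given below, 17.4% of all genes tested fell and 18.4% rose in wildtype mice, and 19% and 20.1% in KO mice. Markers of other brain cells were also present, with sums of 419 to 4856 CPM for 6 astrocyte markers, 515 to 11235 CPM for 5 oligodendrocyte markers and 217 to 15182 CPM for 3 choroid plexus markers. Mouse 2 of the wildtype baseline group had the highest astrocyte (3422 CPM) and oligodendrocyte (9675 CPM) sums of its group, and results that rest on it are given with and without it.

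The first question was how the CXC chemokines responded to LPS in each genotype. Of the 9 members, 8 rose after LPS in both genotypes, and only *Cxcl14* did not pass the test in either. In each of the 8, every LPS-treated mouse lay above every baseline mouse of its genotype. Among all 18739 genes tested, 18.4% were called higher in wildtype and 20.1% in KO mice (edgeR, adjusted p under 0.05 and log2 fold change of at least 0.5). The groups did not overlap, with LPS higher, for 20.8% of all genes in wildtype and 16.2% in KO mice. *Cxcl3*, *Cxcl5*, *Cxcl9* and *Cxcl13* passed the filter on low counts through the LPS-treated groups alone, since 0, 0, 3 and 1 of the 9 baseline libraries reached its cutoff of 0.581 CPM. For these 4 a rise was therefore fixed by the filter, and their p-values below are not support for it. Of the other 5 members 4 rose. In bulk RNA, more cells that express a gene cannot be told apart from more RNA per cell, and the part of the monocyte markers, which rose in the same mice, was not tested.

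**Figure D1:**
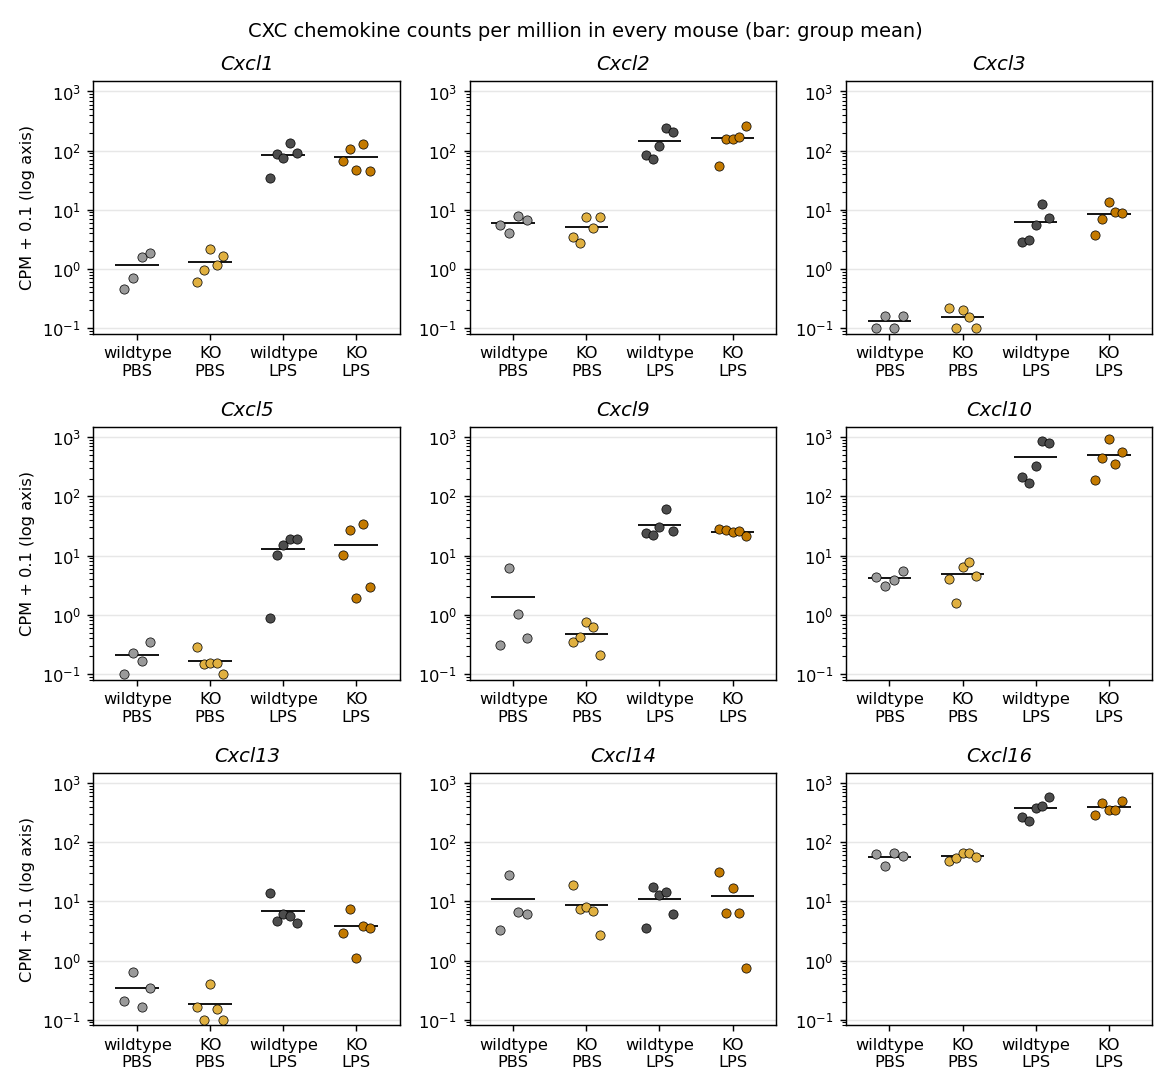
CPM of the 9 CXC chemokines in every mouse, on a log axis after adding 0.1, with 1 point per mouse in the wildtype PBS, KO PBS, wildtype LPS and KO LPS groups and a bar at the group mean. LPS-treated mice lie above all baseline mice of their genotype for every gene except *Cxcl14*, and KO and wildtype mice of the same treatment overlap for every gene.

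Among the CXCR2 ligands, *Cxcl1* was at 0.365, 0.606, 1.51 and 1.74 CPM in the 4 wildtype mice at baseline and at 0.491, 0.878, 2.08, 1.05 and 1.57 CPM in the 5 KO mice. After LPS it was at 34.5, 86.5, 74.9, 135 and 92.6 CPM in wildtype mice and at 66.1, 105, 46.6, 130.3 and 45.4 CPM in KO mice. The lowest LPS-treated mouse thus exceeded the highest baseline mouse by a wide margin, while both genotypes covered the same range. In the edgeR fit, *Cxcl1* rose 81.2-fold in wildtype (log2 fold change 6.34, SE 0.56, adjusted p = 5.33e-08) and 64.1-fold in KO mice (6.00, SE 0.50, adjusted p = 1.5e-08).

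*Cxcl2*, the CXCR2 ligand best known from activated macrophages, already had a measurable level at baseline, with 5.37, 4.00, 7.88 and 6.71 CPM in wildtype mice and 3.31, 2.63, 7.47, 4.77 and 7.35 CPM in KO mice. After LPS the values were 85.3, 71.7, 121, 243 and 207 CPM in wildtype mice and 55.6, 155, 159, 173 and 262 CPM in KO mice. KO mouse 1 was the lowest and KO mouse 5 the highest of the 10, so the genotypes were interleaved. The rise was 24.3-fold in wildtype (log2 fold change 4.60, SE 0.49, edgeR adjusted p = 4.96e-07) and 31.4-fold in KO mice (4.97, SE 0.45, adjusted p = 5.32e-08).

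*Cxcl3*, which shares CXCR2 with them, was close to absent at baseline, with 0, 1, 0 and 1 counts in wildtype mice and 2, 0, 2, 1 and 0 counts in KO mice. After LPS it had 46, 46, 90, 193 and 84 counts in wildtype mice and 64, 119, 226, 160 and 122 counts in KO mice. Because the baseline sums were 2 and 5 counts, the ratio of summed counts per total is given with its 95% counting interval. It was 203 (55.9 to 1683) in wildtype and 157 (67.0 to 486) in KO mice. The edgeR adjusted p was 5.8e-07 and 7.38e-08, respectively, for a rise fixed by the filter.

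*Cxcl5*, a CXCR2 ligand known from epithelial cells of other tissues, was as low at baseline, with 0, 2, 1 and 4 counts in wildtype mice and 3, 1, 1, 1 and 0 counts in KO mice. After LPS it reached 13, 155, 252, 297 and 226 counts in wildtype mice and 183, 467, 30, 611 and 39 counts in KO mice. Wildtype mouse 1 and KO mice 3 and 5 stayed far below the other 7, and the values ran from 0.775 to 34.2 CPM. The ratio of summed counts was 119 (95% interval 57.7 to 297) in wildtype and 252 (116 to 688) in KO mice (edgeR adjusted p = 8.99e-05 and 1.06e-05). For *Cxcl5* too, the filter fixed the rise. With so few baseline counts the fitted log2 fold change moved with single mice, from 6.84 to 7.62 without wildtype baseline mouse 4 and from 7.74 to 8.39 without KO baseline mouse 1.

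The CXCR3 ligand *Cxcl10* had the highest mean CPM of the 9 members after LPS in both genotypes. In single mice *Cxcl16* was higher, and its wildtype median (382 CPM) exceeded that of *Cxcl10* (326 CPM). At baseline it was at 4.27, 2.91, 3.74 and 5.40 CPM in wildtype and at 3.87, 1.48, 6.20, 7.59 and 4.38 CPM in KO mice. After LPS it was at 216, 167, 326, 849 and 789.6 CPM in wildtype and at 192, 447, 944, 356 and 558 CPM in KO mice. The LPS-treated mice varied about as much within each genotype as across both. *Cxcl10* rose 115-fold in wildtype (log2 fold change 6.84, SE 0.67, edgeR adjusted p = 1.66e-07) and 106-fold in KO mice (6.73, SE 0.60, adjusted p = 3.77e-08).

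*Cxcl9*, the other interferon-inducible CXCR3 ligand, had baseline counts of 4, 99, 14 and 5 in wildtype mice 1 to 4 and of 4, 7, 13, 10 and 2 in KO mice 1 to 5. Wildtype mouse 2 stood apart from the other 8 baseline mice, which had at most 14 counts. After LPS *Cxcl9* was at 24.2, 21.8, 29.8, 60.9 and 26.1 CPM in wildtype and at 28.0, 26.8, 24.8, 25.9 and 21.3 CPM in KO mice. The 5 KO mice lay close together (25.4 ± 2.55 CPM, SD, n = 5), and among the wildtype mice (32.6 ± 16.1 CPM, SD, n = 5) mouse 4 stood above the rest. *Cxcl9* rose 17.5-fold in wildtype (log2 fold change 4.13, SE 0.69, edgeR adjusted p = 7.55e-05) and 66.2-fold in KO mice (6.05, SE 0.72, adjusted p = 1.32e-06). That it rose was fixed by the filter. Without wildtype baseline mouse 2 the wildtype log2 fold change was 6.12.

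*Cxcl13*, the B cell chemokine, had 2, 9, 1 and 4 counts in wildtype mice at baseline and 1, 0, 6, 1 and 0 counts in KO mice. After LPS it had 229, 69, 101, 87 and 49 counts in wildtype and 50, 130, 17, 68 and 48 counts in KO mice. Wildtype mouse 1 was the highest and KO mouse 3 the lowest of the LPS-treated mice. The ratio of summed counts per total was 29.6 (95% interval 18.1 to 52.2) in wildtype and 44.5 (22.3 to 104) in KO mice (edgeR adjusted p = 3.42e-05 and 9.09e-06). Here again the filter fixed the rise. The log2 fold change in wildtype mice was 4.79, and 5.56 without baseline mouse 2. In KO mice it was 5.35, and 6.77 without baseline mouse 3, the mouse with 6 counts.

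*Cxcl16*, the membrane-bound chemokine, had the highest level of the 9 members at baseline and an even one, with 62.6, 40.2, 64.9 and 58.7 CPM in wildtype and 48.5, 53.8, 64.9, 66.6 and 55.5 CPM in KO mice. After LPS it was at 266, 231, 382, 410.5 and 574 CPM in wildtype and at 294, 459, 353, 353 and 502 CPM in KO mice. Its rise was the smallest of the 8, at 6.58-fold in wildtype (log2 fold change 2.72, SE 0.25, edgeR adjusted p = 6.42e-08) and 6.77-fold in KO mice (2.76, SE 0.22, adjusted p = 1.26e-08). Of the 2 proteases that release it, *Adam17* rose in wildtype (log2 fold change 0.71) and KO mice (0.68), and *Adam10* did not pass the thresholds (0.17 and 0.21).

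*Cxcl14* was the exception. It was at 3.13, 27.9, 6.64 and 6.09 CPM in wildtype and at 18.6, 7.21, 7.87, 6.65 and 2.59 CPM in KO mice at baseline. After LPS it was at 3.40, 17.3, 12.9, 14.6 and 5.97 CPM in wildtype and at 31.0, 6.29, 16.9, 6.38 and 0.650 CPM in KO mice. All 4 groups overlapped, and the LPS-treated KO mice covered the full range of the other groups. The log2 fold change was -0.01 in wildtype (SE 0.78, edgeR adjusted p = 0.993) and 0.52 in KO mice (SE 0.73, adjusted p = 0.606). The wildtype value, close to 0, was 1.06 without baseline mouse 2, 0.22 without LPS-treated mouse 1 and 0.14 without LPS-treated mouse 5, and the KO value was -0.15 without LPS-treated mouse 1.

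**Figure D2:**
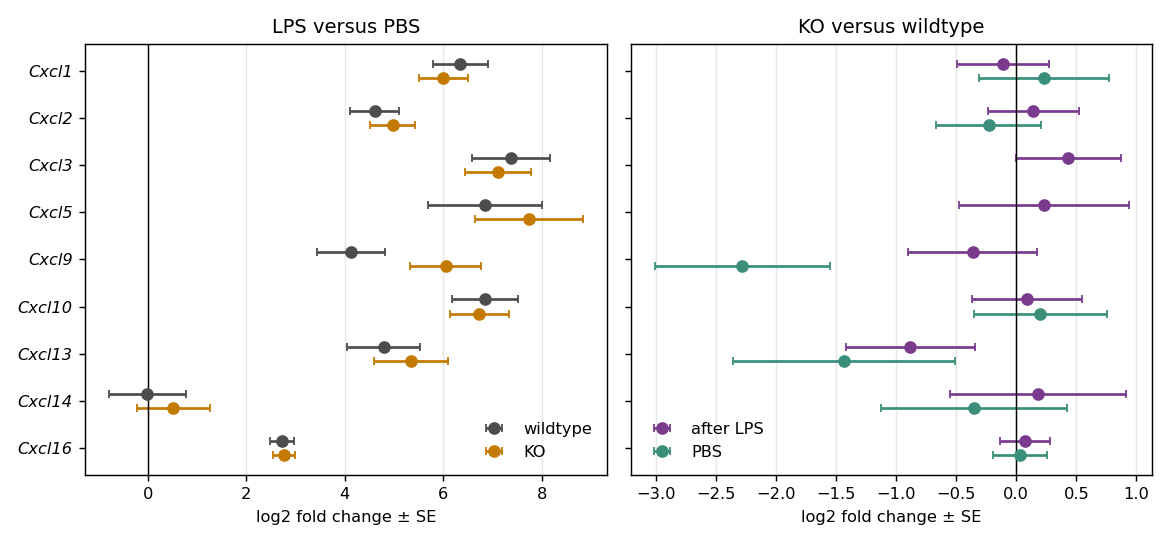
Log2 fold change with its SE from the edgeR fit for each CXC chemokine, for LPS against PBS in wildtype and KO mice on the left and for KO against wildtype after LPS and at PBS on the right. On the left, 8 genes lie between 2.72 and 7.74 and *Cxcl14* near 0, and on the right *Cxcl9* at PBS is the value farthest from 0 at -2.28. No value is drawn for *Cxcl3* and *Cxcl5* at PBS, where both groups were close to 0 counts, and their LPS values rest on at most 7 baseline counts per group.

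Levels were compared between genes as CPM per kilobase of the canonical transcript. After LPS the order in wildtype mice was *Cxcl10* (427 ± 295, SD, n = 5), *Cxcl2* (131 ± 68.1), *Cxcl16* (125 ± 45.3) and *Cxcl1* (88.4 ± 37.7), and each of these overlapped the next in range. A gap without overlap separated *Cxcl1* from the other 5 members, which had means from 11.2 (*Cxcl9*) to 3.71 (*Cxcl14*) and overlapped in turn. The KO mice had the same leading 4 genes in the same order, with 454 ± 257 for *Cxcl10*, 145 ± 65.9 for *Cxcl2*, 131 ± 28.6 for *Cxcl16* and 82.0 ± 39.2 for *Cxcl1* (SD, n = 5). At baseline *Cxcl16* stood alone at the top of the 9 members with 18.9 ± 3.75 in wildtype (n = 4) and 19.3 ± 2.57 in KO mice (n = 5), without overlap with *Cxcl2*, the next gene, at 5.39 ± 1.51 and 4.60 ± 2.01. *Cxcl12*, a CXC ligand outside the 9, was at 22.8 ± 15.01 in wildtype and 21.2 ± 13.3 in KO mice at baseline. *Cxcl16* made up 56.0% of the 9 members' summed level per kilobase in wildtype and 59.8% in KO mice at baseline, and 17.1% and 16.7% after LPS. *Cxcl10* went from 11.0% and 12.5% at baseline to 49.2% and 50.8% after LPS, in wildtype and KO mice respectively.

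**Figure D3:**
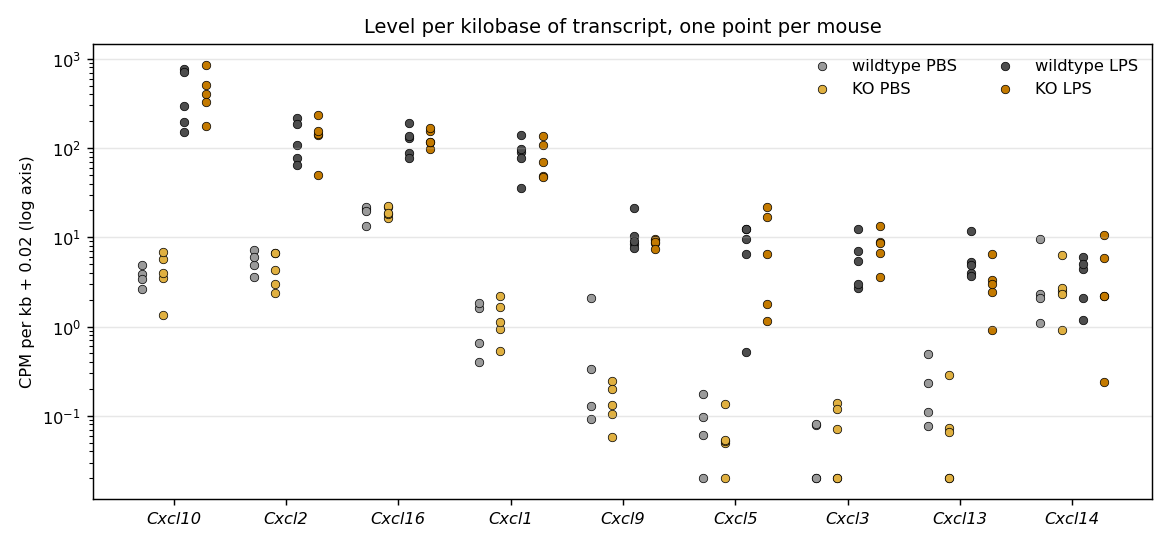
CPM per kilobase of transcript of each CXC chemokine after adding 0.02, on a log axis, with 1 point per mouse and genes in the order of their level after LPS. *Cxcl16* has the highest baseline points, and after LPS *Cxcl10*, *Cxcl2*, *Cxcl16* and *Cxcl1* form an upper group above the other 5 genes.

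The next question was whether LPS-treated *PARK7*/DJ-1 KO and wildtype mice differed in these chemokines. None of the 9 members passed the thresholds of the study (unadjusted p under 0.05 and a log2 difference of at least 0.5), which 1.31% of all genes tested passed, 0.0107% with an adjusted p, and in none did the groups separate, against 0.219% of all genes. The log2 difference, KO minus wildtype, was between -0.11 and 0.23 for *Cxcl1* (-0.11, SE 0.38), *Cxcl2* (0.14, SE 0.38), *Cxcl5* (0.23, SE 0.70), *Cxcl10* (0.09, SE 0.46), *Cxcl14* (0.18, SE 0.73) and *Cxcl16* (0.07, SE 0.21). It was 0.43 for *Cxcl3* (SE 0.44, edgeR unadjusted p = 0.337) and -0.36 for *Cxcl9* (SE 0.54, unadjusted p = 0.509). Without wildtype mouse 4 these were 0.86 (unadjusted p = 0.0629) and -0.00639 (unadjusted p = 0.991), and over all single mice left out they ran from 0.19 to 0.86 for *Cxcl3* and from -0.48 to -0.00639 for *Cxcl9*. The largest difference was that of *Cxcl13*, whose mean was 3.71 ± 2.34 CPM in the KO and 6.82 ± 3.90 CPM in the wildtype group (SD, n = 5 each), with a log2 difference of -0.88 (SE 0.53, edgeR unadjusted p = 0.116, adjusted p = 1.00). *Cxcl13* passed the thresholds only without KO mouse 2 (-1.30, unadjusted p = 0.0326), and without wildtype mouse 1 it was -0.46. The SEs were such that a 2-fold difference, 1 on the log2 scale, lay more than 2 SEs from the value only for *Cxcl1*, *Cxcl2* and *Cxcl16* in both directions.

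At baseline 1 member passed the thresholds, which 0.8% of all genes tested passed and 0.576% passed as lower in KO mice, and 0 members passed with an adjusted p, as 0.00534% of all genes did. The groups of the 2 genotypes did not overlap for 0.971% of all genes and for none of the members. *Cxcl9* was lower in KO (0.372 ± 0.220 CPM, SD, n = 5) than in wildtype mice (1.86 ± 2.78 CPM, SD, n = 4). Its log2 difference was -2.28 (SE 0.73, edgeR unadjusted p = 0.00571, adjusted p = 1.00). The groups overlapped, however, since wildtype mice 1 and 4 lay at 0.209 and 0.310 CPM, within the KO range of 0.108 to 0.660 CPM, and mouse 2 at 6.00 CPM set the wildtype mean. Without this mouse the log2 difference was -0.30 (unadjusted p = 0.595). Its *Cxcl14* (27.9 CPM) and *Cxcl13* (0.545 CPM, from 9 counts) were also the highest of its group. So were its sums of astrocyte and oligodendrocyte markers given above and those of endothelial (1211 CPM), mural cell and fibroblast (438 CPM) and neuronal markers (51.5 CPM), while its microglial sum was the lowest (25555 CPM). The markers of T and NK cells, which CXCL9 attracts, summed to 1.64 CPM in this mouse and to 0.559 to 0.788 CPM in the other 3. The part of these cells in the *Cxcl9* value was not tested. Without the 4 libraries with the highest oligodendrocyte sums (6692 to 11235 CPM, against at most 3915 CPM in the other 15), a choice made after seeing the data, the difference was -0.22 (unadjusted p = 0.716).

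The other members with a measurable baseline level differed by less than their error, with log2 differences of 0.23 for *Cxcl1* (SE 0.54), -0.23 for *Cxcl2* (SE 0.44), 0.20 for *Cxcl10* (SE 0.55), -0.35 for *Cxcl14* (SE 0.78) and 0.03 for *Cxcl16* (SE 0.23). *Cxcl13*, from 16 counts over the 4 wildtype and 8 over the 5 KO mice, differed by -1.44 (SE 0.92, edgeR unadjusted p = 0.137), passed the thresholds without KO mouse 3 (-2.85, unadjusted p = 0.0136), and was -0.67 (unadjusted p = 0.527) without wildtype mouse 2, which held 9 of the 16 wildtype counts. *Cxcl3* and *Cxcl5*, with 2 and 7 counts over the wildtype and 5 and 6 over the KO mice, were too low for a fold.

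Whether the LPS response itself differed between the genotypes was tested with the interaction, the LPS log2 fold change in KO minus that in wildtype mice. No member, and none of all genes tested, passed an adjusted p of 0.05 in edgeR, and 0.961% of all genes had an unadjusted p under 0.05. *Cxcl9* was the only member among these, with a difference of 1.92 (SE 0.91, unadjusted p = 0.0479, adjusted p = 1.00). It was -0.06 without wildtype baseline mouse 2. All of these comparisons share the same 4 groups, and the interaction is the genotype difference after LPS (-0.36) less that at baseline (-2.28). The differences of the other members with a baseline level were -0.34 for *Cxcl1* (SE 0.66), 0.37 for *Cxcl2* (SE 0.58), -0.11 for *Cxcl10* (SE 0.72), 0.56 for *Cxcl13* (SE 0.99), 0.53 for *Cxcl14* (SE 1.07) and 0.04 for *Cxcl16* (SE 0.31).

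Among the 10 LPS-treated mice, the members did not vary as 1 block. With each genotype's mean removed from the log2 CPM, *Cxcl1* and *Cxcl5* went together most closely over all 10 mice (Pearson r = 0.95, Spearman rho = 0.94, and r = 0.90 without the 2 mice farthest from the median). *Cxcl2*, *Cxcl3*, *Cxcl10* and *Cxcl16* formed another set, with r = 0.93 for *Cxcl3* and *Cxcl10* (rho = 0.90), 0.87 for *Cxcl2* and *Cxcl3* (rho = 0.87) and 0.86 for *Cxcl2* and *Cxcl10* (rho = 0.85). Without the 2 farthest mice these were 0.90, 0.76 and 0.74, and *Cxcl2* and *Cxcl3* share some of their sequence. *Cxcl16* had r = 0.82 with *Cxcl2* (rho = 0.75), 0.76 with *Cxcl10* (rho = 0.73) and 0.64 with *Cxcl3* (rho = 0.56), the weakest pair of the set. Without the 2 farthest mice these were 0.74, 0.98 and 0.61, and *Cxcl10* and *Cxcl16* were then the closest pair of all. Across the sets the relation was weak, with r = 0.17 for *Cxcl1* and *Cxcl10* (rho = 0.20), so the neighbouring CXCR2 ligands *Cxcl1* and *Cxcl2* (r = 0.28, rho = 0.35) fell into different sets. KO mouse 3, for example, had the highest *Cxcl10* (944 CPM) and *Cxcl3* (13.5 CPM) of all mice, but low *Cxcl1* (46.6 CPM) and *Cxcl5* (1.79 CPM). These values describe 10 mice and 36 pairs of genes, and the points share library depth and cell makeup.

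**Figure D4:**
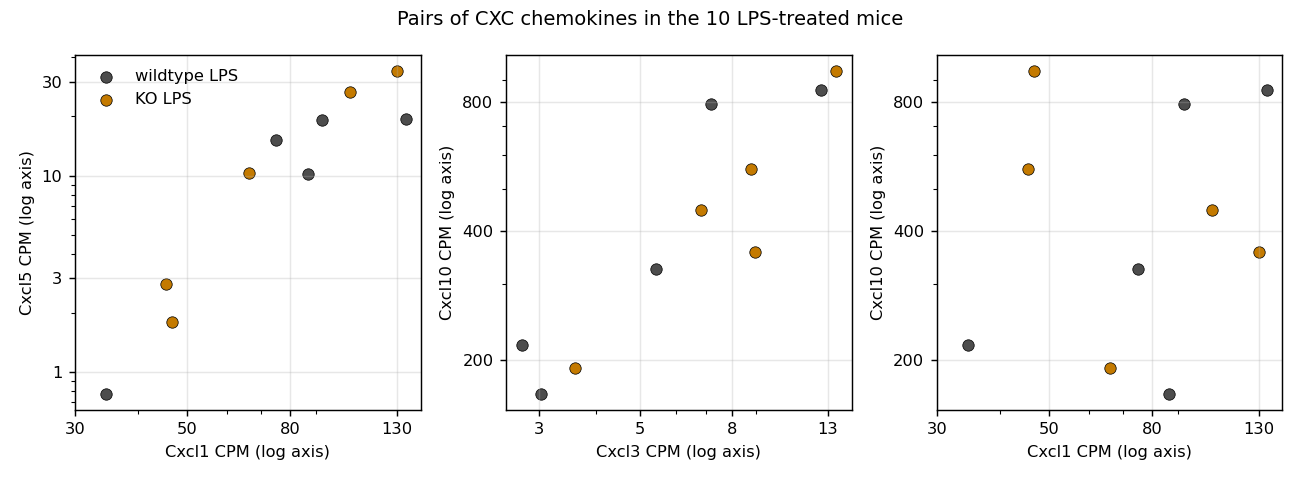
CPM of 3 pairs of CXC chemokines in the 10 LPS-treated mice on log axes, with 1 point per mouse and colours for genotype. *Cxcl5* follows *Cxcl1* and *Cxcl10* follows *Cxcl3* across mice of both genotypes, while *Cxcl10* and *Cxcl1* (r = 0.17) do not follow each other.

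*Cxcl14* followed the markers of other brain cells. Its deviations from the group means over the 19 libraries followed the summed astrocyte markers (Pearson r = 0.98) as well as the mural cell and fibroblast (0.92), endothelial (0.91), neuronal (0.86) and oligodendrocyte markers (0.75), and less closely the T and NK cell and choroid plexus markers (0.61 each). The mouse with the highest *Cxcl14*, KO mouse 1 after LPS (31.0 CPM), also had the highest astrocyte sum (4856 CPM), and the mouse with the lowest, KO mouse 5 after LPS (0.650 CPM), had the lowest sum (419 CPM). *Cxcl9* followed the astrocyte markers less closely (r = 0.55). *Cxcl5* followed the endothelial (0.60) and choroid plexus markers (0.58), and *Cxcl1* the choroid plexus markers (0.57).

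*Cxcl2* (r = 0.74), *Cxcl16* (0.60) and *Cxcl10* (0.57) had their highest values with the 7 neutrophil markers, and *Cxcl10* also followed the monocyte markers (0.53). The neutrophil sum was 401 to 603 CPM at baseline and 270 to 681 CPM after LPS. Its largest single part was *Csf3r*, the G-CSF receptor, which fell from 466 ± 68.8 to 299.6 ± 46.3 CPM in wildtype and from 446 ± 46.1 to 305 ± 82.7 CPM in KO mice (SD, n = 4 or 5). The other 6 summed to 18.5 to 111 CPM at baseline and 80.5 to 330.2 CPM after LPS. Of the 7 markers, 4 were called higher in wildtype and 5 in KO mice, against 18.4% and 20.1% of all genes. Without *Csf3r*, a choice made after seeing the data, the correlation was 0.43 for *Cxcl2*, 0.39 for *Cxcl16* and 0.41 for *Cxcl10*. The part of these cells in the levels of the chemokines was not tested.

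**Figure D5:**
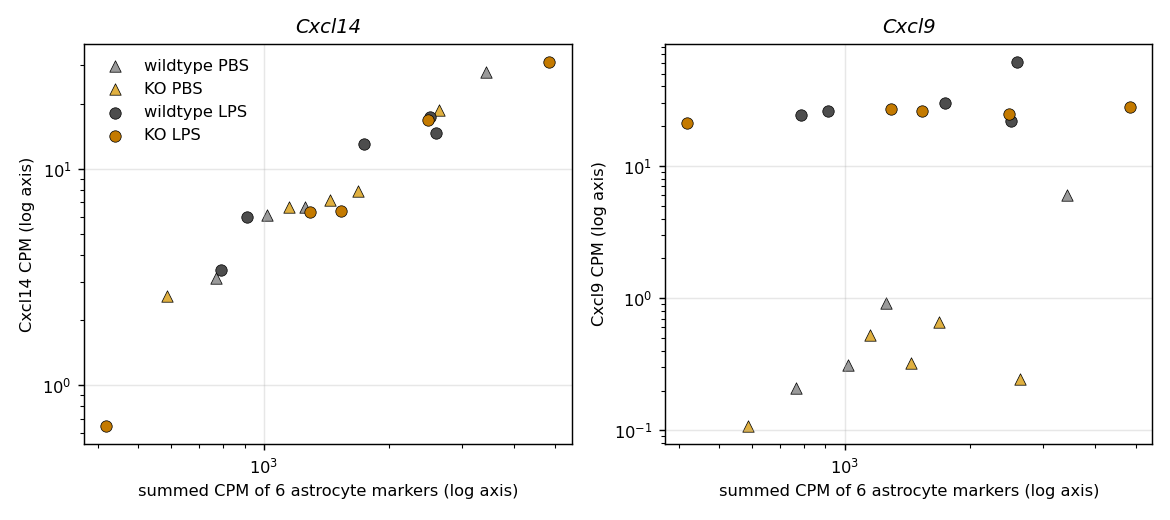
CPM of *Cxcl14* (left) and *Cxcl9* (right) against the summed CPM of 6 astrocyte markers, on log axes, with 1 point per mouse, triangles for PBS and circles for LPS. *Cxcl14* lies along 1 line from 0.650 to 31.0 CPM whatever the group, whereas *Cxcl9* separates by LPS, with wildtype PBS mouse 2 at 6.00 CPM above the other PBS mice.

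By the same measure over 13363 genes with a mean of at least 1 CPM, the genes most like each member were listed. Closest to *Cxcl14* were *Slc4a4* (r = 0.995), *Tril* (0.993) and *Scg3* (0.992), and closest to *Cxcl2* were *Tnfaip3* (0.95), *Lilrb4a* (0.92) and *Nfkbiz* (0.92). *Cxcl10* was followed by *Tnip3* (0.92), *Nlrc5* (0.90) and *Pim1* (0.89), and *Cxcl16* by *Arl5c* (0.95), *Tlr2* (0.91) and *Crlf3* (0.91). For *Cxcl5* they were *Mmp3* (0.93), *Kank4* (0.89) and *Crispld2* (0.87), for *Cxcl1* *Csf3* (0.82), *Madcam1* (0.80) and *Phtf1* (0.78), and for *Cxcl3* *Edn1*, *Ntng2* and *Cd40* (0.87 each). For *Cxcl9* the closest were *Zcchc12* and *Prdx6* (0.79 each), and for *Cxcl13* *Drosha* (0.77). All of these were picked as the highest of 13363 values over 19 libraries. How high unrelated genes would reach by such a choice was not tested, which matters most for the lower values.

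Of the other CXC ligands, 3 of 6 passed the filter on low counts. *Cxcl11*, the third interferon-inducible CXCR3 ligand, was tested only through its LPS-treated groups, since 0 of 9 baseline libraries reached the cutoff, so that a rise was fixed by the filter. It went from 0 to 8 counts per mouse at baseline to 52 to 300 counts in wildtype mice and from 0 to 2 counts to 78 to 323 counts in KO mice. *Cxcl12*, the homeostatic ligand of CXCR4, fell from 129 ± 85.1 to 9.92 ± 6.30 CPM in wildtype and from 120 ± 75.2 to 8.60 ± 6.95 CPM in KO mice (SD, n = 4 or 5), with log2 fold changes of -3.70 (SE 0.62) and -3.79 (SE 0.61). Endothelial and mural cell markers were present in these libraries, and the part of such cells in the *Cxcl12* level was not tested. *Pf4* did not pass the test (-0.50 and -0.52).

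Among 9 receptors of CXC chemokines 7 were tested, of which 4 rose and 1 fell in wildtype mice, and 3 rose and 1 fell in KO mice. Of all genes tested, 18.4% were called higher and 17.4% lower in wildtype mice, and 20.1% and 19% in KO mice. *Cxcr2*, the receptor of the CXCL1 group, went from 1.81 ± 0.638 to 32.6 ± 11.1 CPM in wildtype and from 2.10 ± 1.15 to 33.8 ± 16.2 CPM in KO mice (log2 fold change 4.17, SE 0.47, and 4.00, SE 0.42). Neutrophils carry this receptor, and their markers *S100a8* (log2 fold change 2.20 and 2.03), *S100a9* (2.12 and 2.11), *Mmp8* (2.74 and 3.19) and *Mmp9* (1.16 and 1.11) rose in the same mice. Of the other 3 markers of the list, *Csf3r* fell (-0.64 and -0.55), *Retnlg* was at 0.90 in wildtype (edgeR adjusted p = 0.172) and rose by 1.23 in KO mice, and *Ly6g* was at 0.36 and 0.28 and did not pass the test. Their part in the *Cxcr2* level was not tested. *Cxcr3*, the receptor of CXCL9 and CXCL10, went from 2.77 ± 0.722 to 0.0499 ± 0.0684 CPM in wildtype and from 1.89 ± 0.497 to 0.0488 ± 0.0281 CPM in KO mice, with at most 2 counts in any LPS-treated mouse. *Cxcr5*, the CXCL13 receptor, went from 0.188 ± 0.0880 to 1.40 ± 0.496 CPM in wildtype and from 0.0844 ± 0.0285 to 2.42 ± 1.87 CPM in KO mice (SD, n = 4 or 5). *Cxcr3* reached the cutoff of the filter in 0 of 10 LPS-treated libraries and *Cxcr5* in 0 of 9 baseline libraries, so the fall of the one and the rise of the other were fixed by the filter, and both are among the counts above. *Ackr1*, an atypical receptor that binds many chemokines, rose by 5.69 (SE 0.69) and 5.18 (SE 0.61), and the part of cell makeup in this was not tested. *Cxcr4* rose in wildtype (0.88, edgeR adjusted p = 0.0094) and did not pass the test in KO mice (0.29, adjusted p = 0.356).

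On the NF-κB side, 8 of 9 genes rose in wildtype and 9 of 9 in KO mice, against 18.4% and 20.1% of all genes, with a median log2 fold change of 1.83 and 2.25, against -0.06 and -0.01 over all genes. They included the subunit *Nfkb2* (2.79 and 3.09), the inhibitor *Nfkbia* (2.44 and 2.56) and the cofactor *Nfkbiz* (2.37 and 2.46), while *Rel* was at 0.60 in wildtype (edgeR adjusted p = 0.084) and rose by 0.95 in KO mice. On the interferon-γ side *Irf1* (1.81 and 1.45), *Jak1* (0.97 and 1.26) and *Jak2* (1.15 and 1.10) rose in both genotypes, and the receptor genes *Ifngr1* and *Ifngr2* did not pass the thresholds. All 3 regulators of chemokine mRNA decay rose, *Zc3h12a* (2.27 and 2.49), *Zfp36* (1.16 and 1.31) and *Elavl1* (0.75 and 0.80). Of the genes tested in these lists of ligands, receptors, proteases, NF-κB and mRNA decay, 0 passed the thresholds between KO and wildtype mice after LPS or at baseline, where 1.31% and 0.8% of all genes did.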

How the data were processed

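RNA of CD11b+ brain cells from 19 mice was prepared as stranded total RNA libraries after ribosomal depletion and sequenced as paired reads of 75 bp. Per the study's methods and the submitters' processing notes, the authors used Cutadapt for trimming and STAR 2.7.9a for alignment to GRCm39 and counting over Ensembl genes. They deposited raw counts per gene, without normalization. Groups and replicate numbers were taken from the labels.

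Counts were analysed with edgeR 4.0.16 in R 4.3.3. Low counts were removed with filterByExpr at its defaults. A gene had to reach the CPM of 10 counts at median depth (0.581 CPM) in at least 4 libraries, the size of the smallest group, and 15 counts in total. The rest was normalized with TMM and fitted with the quasi-likelihood test over all 19 libraries and 4 groups. Benjamini-Hochberg adjustment ran over 18739 genes. LPS against baseline was called at an adjusted p under 0.05, KO against wildtype at an unadjusted p under 0.05, both with a log2 fold change of at least 0.5, and the interaction at an adjusted p under 0.05. The SE is the log2 fold change divided by the square root of F. GENCODE M39 named 56236 of 56980 genes. Correlations used log2 CPM with a prior count of 2 after removal of group means. The scripts were tested on simulated data. No 2 libraries of a group were alike within sampling noise, so each was 1 replicate.

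All 9 members were named, with the ligand, receptor, protease, NF-κB, interferon-γ and mRNA decay lists and the 3 genes most like each member. Not every gene of the interferon-γ list is reported here. The members and lists were chosen with earlier results of these data known, so that their directions are not independent support. Alternatives were DESeq2 1.42.0, its size factors in edgeR, no low-count filter, at least 10 counts in every sample, only the groups compared, other thresholds, the replicate number as a block, and each mouse left out in turn. Leaving out the 4 libraries with the highest oligodendrocyte markers was added after seeing the data.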

Additional observations from a re-analysis of the deposited data

Results flagged for a closer look

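In 33 sets of 4 or 5 mice (a gene in a group), the gap between the highest or lowest value and its nearest neighbour was divided by the range of the set. For normally distributed values chance alone flags about 1 in 20 such sets. CPM need not follow this rate, above all at low counts, so the number flagged is not evidence of an excess. In all, 5 stood out. In the wildtype baseline group, mouse 2 was far above the other 3 mice for *Cxcl9* (6.00 CPM, nearest 0.920 CPM) and for *Cxcl14* (27.9 CPM, nearest 6.64 CPM). In the wildtype LPS group, mouse 4 was far above the others for *Cxcl9* (60.9 CPM, nearest 29.8 CPM) and mouse 1 for *Cxcl13* (13.7 CPM, nearest 6.08 CPM). In the KO baseline group, mouse 3 was far above the others for *Cxcl13* (0.305 CPM, nearest 0.0614 CPM), a value that rests on 6 counts.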

How the results depend on the processing

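The 8 chemokines that rose after LPS were called higher with DESeq2, with its size factors, without the filter, within the groups compared, under the replicate block, without the 4 libraries richest in oligodendrocyte markers, and without any 1 mouse. For *Cxcl3*, *Cxcl5*, *Cxcl9* and *Cxcl13*, whose rise was fixed by the filter, these calls are not independent support. With at least 10 counts in every sample, 3 members were left to test. Of these 3 were called higher in both genotypes, as were 2594 of 13307 genes in wildtype and 2789 in KO mice. None (0) was called lower in KO mice at baseline, against 52 of the 13307 genes. The number called lower at baseline was also 0 without the 4 libraries, within the groups compared, where *Cxcl9* did not pass the filter, and by adjusted p. Leaving out 1 mouse gave 0 to 2 members at baseline and 0 to 1 after LPS.

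Some differences that had not passed the thresholds changed sign. *Cxcl14* after LPS in wildtype mice was 0.0355 without the filter, 0.00619 with DESeq2, 0.00653 with its size factors, 0.0211 within the groups compared and 0.81 without the 4 libraries. Without those libraries, KO minus wildtype was -0.29 for *Cxcl14* after LPS, 0.19 for *Cxcl14* and -0.0699 for *Cxcl16* at baseline, and the interaction was -0.30 for *Cxcl9*, -0.29 for *Cxcl13* and -0.49 for *Cxcl14*. *Cxcl16* at baseline was -0.00079 without the filter.

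Same-numbered mice are different animals. Deviations of same-numbered LPS and PBS mice of a genotype correlated by -0.0418 to 0.58, over 0.1 in 7 of 9 pairs, and 5 of 9 were closest to their own number. Between genotypes they correlated by -0.57 to 0.30. Since not every pair was over 0.1, the samples were taken to share only a number. With the replicate number as a block, *Cxcl14* in wildtype mice was 0.57. KO minus wildtype under the block was -0.0336 for *Cxcl5* and -0.27 for *Cxcl14* after LPS, and -0.0392 for *Cxcl10* and -0.0493 for *Cxcl16* at baseline. The interaction under the block was 0.31 for *Cxcl10* and -0.25 for *Cxcl14*. The block changed no call.

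With 1 mouse left out, LPS values of *Cxcl14* ran from -0.32 to 1.06 in wildtype and from -0.15 to 1.01 in KO mice. KO minus wildtype after LPS ran from -0.37 to 0.13 for *Cxcl1*, -0.10 to 0.41 for *Cxcl2*, -0.32 to 0.52 for *Cxcl5*, -0.27 to 0.42 for *Cxcl10*, -0.51 to 0.48 for *Cxcl14* and -0.0576 to 0.28 for *Cxcl16*. At baseline it ran from -0.0679 to 0.61 for *Cxcl1*, -0.0421 to 0.43 for *Cxcl10*, -0.84 to 0.70 for *Cxcl14* and -0.10 to 0.10 for *Cxcl16*. The interaction ran from -0.0631 to 2.30 for *Cxcl9*, -0.48 to 0.21 for *Cxcl10*, -0.21 to 1.97 for *Cxcl13*, -0.53 to 1.02 for *Cxcl14* and -0.10 to 0.25 for *Cxcl16*. The causes of these changes were not tested.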
